A study of Mus musculus with 35 samples.

Results

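The integrated stress response genes described here are 9 genes chosen by name: Atf4, Atf5, Ddit3 (also called Chop), Cebpg, Asns, Chac1, Trib3, Ppp1r15a (also called Gadd34) and Ddit4 (also called Redd1). They are 9 of the 48709 genes in the count tables. Each of the 9 passed the filter on low counts, Chac1 only through the groups where it was high. The cells were OT-I CTLs, cytotoxic CD8+ T cells from mice whose T cells carry a transgenic receptor for an ovalbumin peptide. They were primed with antibodies to CD3 and CD28 and expanded in IL-2 for more than a week, so all 7 groups share that IL-2 history. One group was lysed untreated at 0 h. A further 6 groups spent 24 h in medium of pH 7.4, pH 7 or pH 6.6, and at every pH 1 group had 200 IU/mL of IL-2 and 1 had none. The medium was acidified with hydrochloric acid. Each group held 5 biological replicates, and dead cells were removed on a Ficoll cushion before RNA was extracted. The genotype, age and sex of the animals beyond the OT-I receptor were not given in the sources used here.

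The integrated stress response starts when one of a small family of kinases phosphorylates the translation factor eIF2alpha. General protein synthesis slows, while the messenger RNA of ATF4, a bZIP transcription factor, is translated more. ATF4 then binds composite C/EBP-ATF elements in genes for amino acid synthesis and uptake, tRNA charging, glutathione breakdown and cell death. In T cells, ATF4 is also driven by mTORC1 and is known for supplying amino acids during growth. Because ATF4 is controlled largely at translation, the level of Atf4 message is not a measure of ATF4 protein, and no protein was measured in these libraries. In separate assays of such CTLs the authors examined eIF2alpha activation and reported no notable difference at low pH.

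Libraries held from 16721319 to 34033340 counts on genes, and levels are given below as counts scaled to library size by TMM (CPM, a library's counts scaled to a fixed total). This scaling takes most genes as unchanged, while 76.3% of all genes passed an adjusted p of 0.05 at pH 6.6 against pH 7.4 with IL-2. Levels are relative within a library, and amounts per cell were not measured. Differences are log2 fold changes from the fit across all 13819 genes tested, with a Benjamini-Hochberg adjusted p-value from edgeR. A gene was called when that p-value was under 0.05. The standard error (SE) was derived as the absolute log2 fold change divided by the square root of the test's F statistic. The 95% intervals were built from this SE. The lineage markers Cd8a, Cd8b1, Cd3e and Trac were high in every library (Cd8a from 674 to 1596 CPM and Cd8b1 from 212 to 414 CPM). The effector genes on the same list varied more, with Gzmb from 36.7 to 9010 CPM and Ifng from 0.421 to 41.4 CPM. The summed level of the 10 CD8+ T cell genes was 10692 to 13306 CPM at pH 7.4 with IL-2 and 5822 to 7031 CPM at pH 6.6 with IL-2. Of markers of other cells, Lyz2, Csf1r and the globin Hbb-bs did not exceed 0.286 CPM in any library. Of 4 CD4+ T cell genes, Cd40lg reached 0.0842 CPM at most, Cd4 2.48 CPM and Foxp3 5.50 CPM. The other, Zbtb7b, ranged from 15.9 to 60.3 CPM. The sum of these genes was 41.0 to 63.8 CPM at 0 h. With IL-2 it was 17.4 to 33.4 CPM at pH 7.4 and 20.2 to 32.4 CPM at pH 6.6. Of 3 NK cell genes, Ncr1 did not exceed 0.0694 CPM, while Klrb1c (8.27 to 94.9 CPM) and Eomes (111 to 662 CPM), which activated CD8+ T cells can also express, were present. Their sum was 596 to 705 CPM at pH 7.4 with IL-2 and 180 to 257 CPM at pH 6.6 with IL-2. The summed level of 6 myeloid markers also moved with pH, from 5.11 to 10.8 CPM at pH 7.4 with IL-2 to between 16.5 and 30.9 CPM at pH 6.6 with IL-2. Most of that sum was Cd68, which ranged from 4.95 to 32 CPM over all libraries, while Adgre1 and S100a8 had a median of 0. The part of these sums in the results below was not tested.

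**Figure D1:**
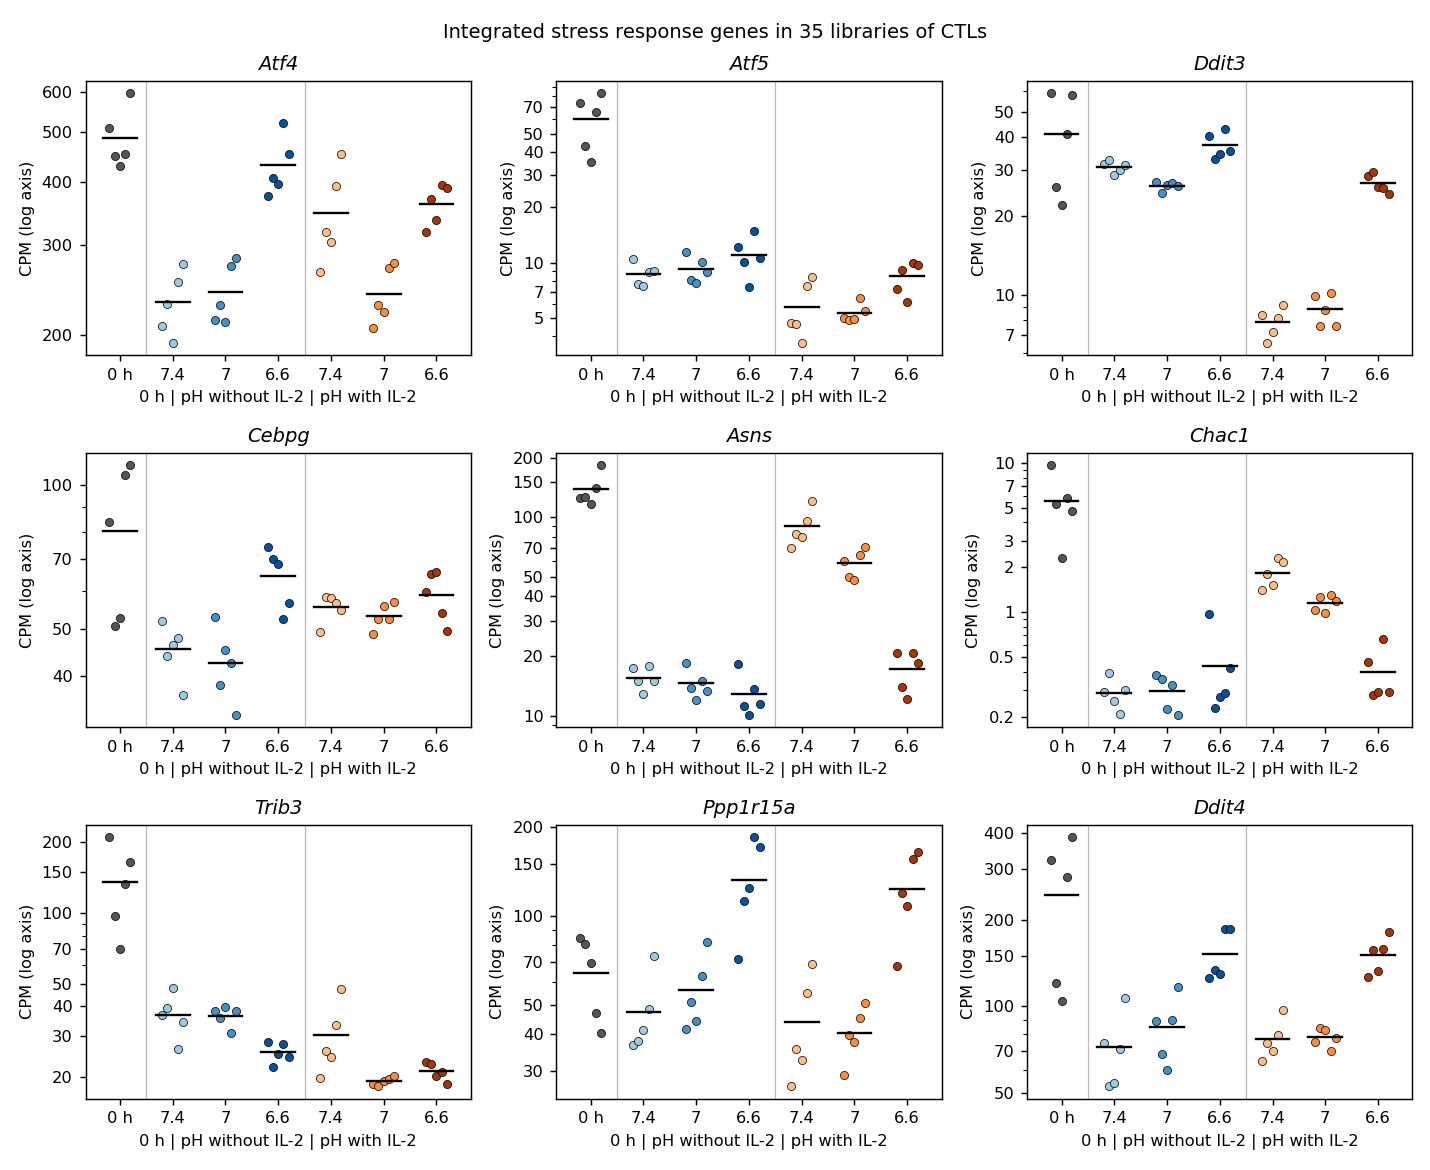
Level of the 9 genes in every library, in CPM on a log axis, by group (0 h, then pH 7.4, 7 and 6.6 without IL-2, then the same with IL-2). Points are the 5 replicates in number order and bars are group means. Asns and Chac1 are high only at 0 h and in IL-2 at pH 7.4 and pH 7, while among the 24 h groups Ppp1r15a and Ddit4 are higher at pH 6.6 with or without IL-2. Ddit4 is higher still at 0 h on average.

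Atf4 message was abundant in every group and its response to acidity depended on IL-2. Without IL-2, Atf4 rose at pH 6.6. With IL-2 it fell at pH 7 and at pH 6.6 did not differ from its level at pH 7.4 beyond the error of the fit. The gene (ENSMUSG00000042406, GRCm38 chr15:80255184-80257541, plus strand) has a mean of 488 ± 67.5 CPM at 0 h (SD, n = 5). Without IL-2 at pH 7.4 its levels in replicates 1 to 5 were 208, 230, 193, 255 and 276 CPM. At pH 6.6 without IL-2 they were 375, 407, 395, 522 and 453 CPM. Every acidic library was above every neutral one. With IL-2 at pH 7.4 the replicates measured 266, 318, 304, 391 and 453 CPM, and replicates 4 and 5 stood above the others. The pH 7 libraries with IL-2 measured 207, 229, 222, 271 and 277 CPM, and those at pH 6.6 with IL-2 measured 319, 370, 337, 393 and 388 CPM. The pH 7 group with IL-2 thus lay under the pH 6.6 group without overlap.

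The change of Atf4 from pH 7.4 to pH 6.6 was 0.89 (SE 0.08, adjusted p = 6.03e-12) without IL-2 and 0.08 (SE 0.07, 95% interval -0.07 to 0.23, adjusted p = 0.338) with IL-2. Only upper quartile scaling, of the settings tried, called the latter (0.22, adjusted p = 0.0122). The 2 changes differed by -0.81 (SE 0.11, adjusted p = 4.5e-08), with the same sign in 5 of 5 replicates. From pH 7.4 to pH 7 with IL-2, Atf4 fell by 0.51 (SE 0.08, adjusted p = 1.48e-05), and this differed from the change without IL-2 (-0.57, SE 0.11, adjusted p = 0.00201), a difference not called without the replicate block. IL-2 itself raised Atf4 at pH 7.4 by 0.57 (SE 0.08, adjusted p = 3.27e-08). At pH 7 the IL-2 difference was -0.0064 (SE 0.07, adjusted p = 0.941). At pH 6.6 it had turned to -0.25 (SE 0.07, adjusted p = 0.0146), and that call was lost when the libraries of replicate 2 (-0.24), 3 (-0.25) or 4 (-0.20) were left out. These are bulk libraries, in which fewer cells of a type and less RNA per cell cannot be told apart. In order of level, 0 h was highest, followed by pH 6.6 without IL-2 and pH 6.6 with IL-2. The pH 6.6 and pH 7.4 groups with IL-2 did not differ beyond their spread, nor did the lowest 3 groups (pH 7 without IL-2, pH 7 with IL-2 and pH 7.4 without IL-2).

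The ATF4 targets Asns and Chac1 were, like Atf4, raised by IL-2 at pH 7.4. Unlike Atf4, they lost most of that level at pH 6.6 with IL-2. Asns, asparagine synthetase (ENSMUSG00000029752, chr6:7675169-7693254, minus strand), makes asparagine from aspartate and glutamine and is a standard readout of the amino acid response. Chac1 (ENSMUSG00000027313, chr2:119351229-119354381, plus strand) breaks down glutathione. With IL-2 Asns fell by 2.40 (SE 0.13, adjusted p = 1.44e-17) from neutral medium to pH 6.6. Chac1 fell by 2.23 (SE 0.29, adjusted p = 3.19e-08) on the log2 scale, from low counts of 35 to 56 reads per library to 7 to 16. Only at 0 h and with IL-2 at pH 7.4 and pH 7 did every library hold at least 10 Chac1 reads. The gene passed the count filter through these groups, so its lower calls elsewhere are not separate support beside those of Asns.

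The Asns libraries at pH 7.4 with IL-2 measured 70.3, 82.5, 79.6, 96.3 and 121 CPM. At pH 7 with IL-2 they measured 60.6, 50.2, 48.4, 64.5 and 70.8 CPM. At pH 6.6 with IL-2 they measured 20.9, 14, 12.2, 20.7 and 18.4 CPM, less than any library at the other pH values with IL-2. The fall from pH 7.4 to pH 7 was also called for Asns (-0.62, SE 0.12, adjusted p = 0.000387). Without IL-2, Asns was between 10.2 and 18.5 CPM at every pH. The change there from pH 7.4 to pH 6.6 was -0.27 (SE 0.13, adjusted p = 0.0574), and it was called only when the libraries of replicate 1 were left out (-0.41), when only the groups compared or the 24 h libraries were fitted, or with upper quartile scaling. The pH change of Asns with IL-2 exceeded that without IL-2 by -2.13 (SE 0.18, adjusted p = 2.88e-12). IL-2 raised Asns by 2.53 (SE 0.13) at pH 7.4, by 2.004 (SE 0.13) at pH 7 and by 0.40 (SE 0.13, adjusted p = 0.0209) at pH 6.6. The last call was lost without replicate 3 (0.43), 4 (0.35) or 5 (0.34).

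Chac1 at pH 7.4 with IL-2 measured 1.42, 1.81, 1.52, 2.32 and 2.17 CPM. At pH 6.6 with IL-2 it measured 0.462, 0.280, 0.294, 0.658 and 0.291 CPM, again with no overlap. Its difference between pH 7 and pH 7.4 with IL-2, -0.67 (SE 0.24, adjusted p = 0.0504), was just outside the threshold. It passed without replicate 1 (-0.71, adjusted p = 0.0175), with RLE scaling, and when only the groups compared or the 24 h libraries were fitted. Without IL-2 it rested on 5 to 23 reads per library. The pH change with IL-2 exceeded that without IL-2 by -2.76 (SE 0.48, adjusted p = 6.68e-06). IL-2 raised Chac1 by 2.68 (SE 0.30) at pH 7.4, and at pH 6.6 the IL-2 difference was -0.08 with an interval of -0.81 to 0.65. In the order of levels, Asns separated 0 h, pH 7.4, pH 7 and pH 6.6 with IL-2 from one another, but not pH 6.6 with IL-2 from the pH 7.4 group without it, nor the 3 groups without IL-2 from their neighbours.

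The sequences at these genes that carry a C/EBP-ATF core are shown because this element is the one ATF4 is known to bind. The core searched was TGATGNAA on both strands of the 300 bases from 250 before to 50 after each RefSeq start (GRCm38.p6). Windows were found for all 9 genes, 10 windows in total. Asns, Chac1 and Trib3 held the core, against 3.97% of the 32851 mouse windows. Capitals mark the match, which in Chac1 and Trib3 is the reverse complement. The Chac1 stretch (chr2:119350992-119351141, plus strand) lies upstream of the gene, the Asns stretch (chr6:7693214-7693243, minus strand) lies just upstream of the RefSeq start and inside the longer GENCODE gene model, and the Trib3 stretch (chr2:152344028-152344057, minus strand) lies just after the RefSeq start, where the match begins at base 15 of the transcript and outside the shorter GENCODE gene model.
Chac1: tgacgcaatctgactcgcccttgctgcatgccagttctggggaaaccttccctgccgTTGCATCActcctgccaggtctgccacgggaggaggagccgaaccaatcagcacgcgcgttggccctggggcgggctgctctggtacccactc
Asns: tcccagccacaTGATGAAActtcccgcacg
Trib3: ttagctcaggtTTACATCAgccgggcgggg

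A match of letters is a description and not a measured binding site, and the windows of the other 6 genes simply did not hold these letters. Of the 3 genes with the core, Asns and Chac1 had a correlation of 0.97 over the 7 group means of log2 CPM, while Trib3 correlated with Asns at 0.495 and with Chac1 at 0.618. The points share their libraries, so these are descriptions.

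Set against Atf4 itself, the targets were not in a fixed proportion to the message. Levels were put on a per-length scale for this (RPKM, CPM divided by the exon length in kilobases), and Asns was divided by Atf4 within each library. The ratio was 0.224 ± 0.00724 at pH 7.4 and 0.211 ± 0.0269 at pH 7 with IL-2 (SD, n = 5). At pH 6.6 with IL-2 it was 0.0413 ± 0.0102, with every library between 0.0314 and 0.0563. At 0 h it was 0.244 ± 0.0233, close to the values with IL-2 at the higher pH. Without IL-2 the ratio was 0.0586 ± 0.00907 at pH 7.4 and 0.0265 ± 0.00873 at pH 6.6. The ratio of Asns to Atf4 in IL-2 thus kept its level at pH 7, where both messages were lower, and not at pH 6.6. Ddit3 moved the other way in IL-2, from 0.0322 ± 0.00662 of the Atf4 level at pH 7.4 to 0.103 ± 0.0152 at pH 6.6. These ratios are descriptions with no test.

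**Figure D2:**
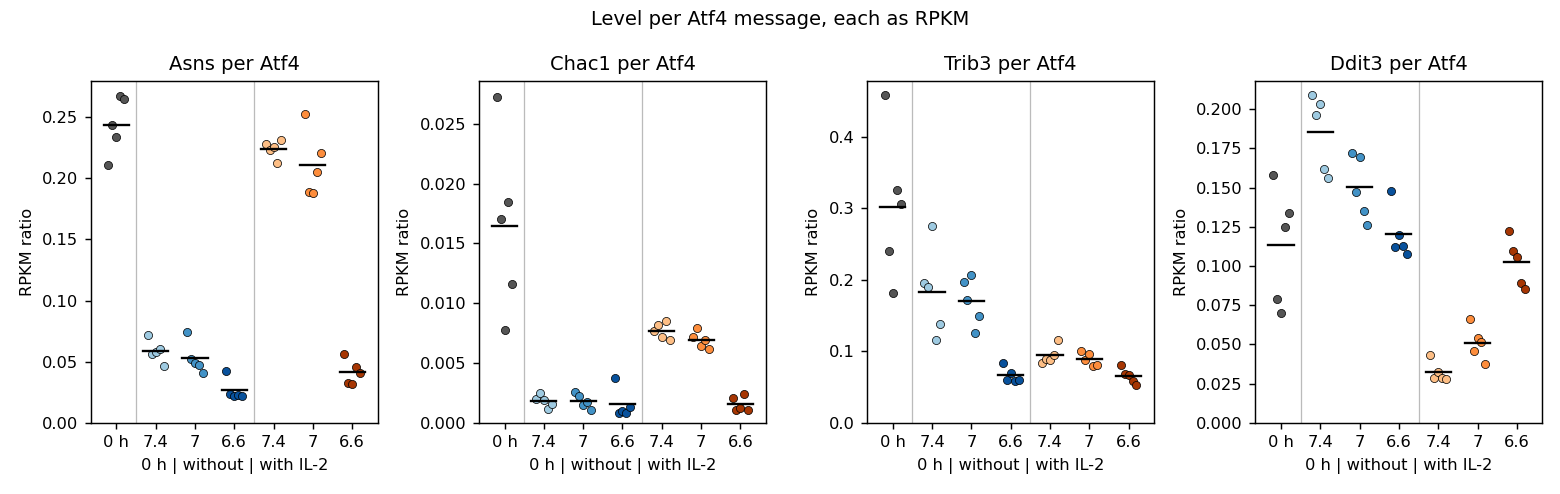
RPKM of Asns, Chac1, Trib3 and Ddit3 divided by the RPKM of Atf4 in the same library, by group, on linear axes from 0. Points are replicates and bars are means. For Asns with IL-2 the pH 7.4 and pH 7 libraries lie between 0.188 and 0.253 and the pH 6.6 libraries between 0.0314 and 0.0563.

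Ddit3 was lower with IL-2 at pH 7.4, and at pH 6.6 with IL-2 it was near its levels without IL-2 at pH 7.4 and pH 7. Ddit3 encodes CHOP, a bZIP factor tied to cell death under prolonged stress (ENSMUSG00000025408, chr10:127290774-127296288, plus strand). With IL-2 at pH 7.4 its levels were 8.40, 6.56, 7.22, 8.15 and 9.12 CPM, and at pH 7 they were 9.93, 7.63, 8.73, 10.2 and 7.57 CPM. At pH 6.6 with IL-2 they were 28.4, 29.5, 25.8, 25.5 and 24.2 CPM. Each pH 6.6 library with IL-2 was thus above every other library with IL-2. The groups without IL-2 lay from 24.5 to 42.7 CPM. Ddit3 rose by 1.77 (SE 0.16, adjusted p = 7.29e-12) from pH 7.4 to pH 6.6 with IL-2, and by 1.61 (SE 0.16) from pH 7 to pH 6.6. Without IL-2 the change from pH 7.4 to pH 6.6 was 0.26 (SE 0.15, adjusted p = 0.11), with the groups not overlapping, and it was called when only the groups compared or the 24 h libraries were fitted. The changes with and without IL-2 differed by 1.51 (SE 0.22, adjusted p = 2.53e-07). IL-2 lowered Ddit3 by -1.98 (SE 0.16, adjusted p = 3.49e-13) at pH 7.4 and by -1.57 (SE 0.16) at pH 7. At pH 6.6 the difference was -0.47 (SE 0.15, adjusted p = 0.0187), with the groups not overlapping. That call was lost without replicate 1 (-0.43) or 4 (-0.40). A further annotated gene with the same symbol overlaps 6.13% of its exon bases on the same strand, and 4.73% are overlapped on the opposite strand by Gm4189 and Mars, so a small share of its reads is uncertain.

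Atf5 and Cebpg, bZIP factors of the same network, had smaller changes at pH 6.6 with IL-2 than Ddit3. Atf5 (ENSMUSG00000038539, chr7:44812256-44816658, minus strand) is translated under eIF2alpha phosphorylation much as ATF4 is. It was at 5.79 ± 2.03 CPM at pH 7.4 and 8.47 ± 1.71 CPM at pH 6.6 with IL-2 (SD, n = 5). Atf5 rose by 0.58 (SE 0.15, adjusted p = 0.000851), in 5 of 5 replicates, although the groups overlapped. Without IL-2 its levels were 8.72 ± 1.21 CPM and 11.1 ± 2.77 CPM, a change of 0.33 (SE 0.14, adjusted p = 0.0455) that was lost without replicate 1 (0.33), 2 (0.28) or 4 (0.22), without the replicate block, with either other filter and with upper quartile scaling. IL-2 lowered Atf5 by -0.63 (SE 0.15) at pH 7.4 and by -0.79 (SE 0.15) at pH 7. Cebpg encodes C/EBP-gamma, a dimer partner of ATF4 (ENSMUSG00000056216, chr7:35046422-35056573, minus strand). It had the narrowest range of the 9 genes, 0.86 on the log2 scale between its highest and lowest group means. Cebpg rose from 45.4 ± 5.80 CPM at pH 7.4 to 64.5 ± 9.27 CPM at pH 6.6 without IL-2, by 0.51 (SE 0.16, adjusted p = 0.00552). With IL-2 it was at 55.5 ± 3.77 and 59.0 ± 7.06 CPM, with a difference of 0.08 and an interval of -0.24 to 0.40. The pH changes of Cebpg with and without IL-2 differed by -0.43 (SE 0.22, adjusted p = 0.0912), which did not pass the threshold. It passed when only the groups compared or only the 24 h libraries were fitted.

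Ppp1r15a and Ddit4 rose at pH 6.6 by similar amounts with and without IL-2. Ppp1r15a (ENSMUSG00000040435, chr7:45522916-45526268, minus strand) encodes GADD34, the subunit that returns phosphatase to eIF2alpha and ends the response. Its levels at pH 7.4 with IL-2 were 26.6, 35.7, 32.7, 55.2 and 69.0 CPM, and at pH 6.6 with IL-2 they were 67.9, 120, 108, 156 and 165 CPM. In each of the 24 h groups replicates 4 and 5 were above replicates 1 to 3, and the acidic and neutral groups overlapped while 5 of 5 replicates were higher at pH 6.6. The change was 1.51 (SE 0.22, adjusted p = 3.07e-07) with IL-2 and 1.46 (SE 0.22, adjusted p = 8.52e-07) without it, and their difference was 0.05 with an interval of -0.57 to 0.66. The effect of IL-2 on Ppp1r15a was not called at any pH. At pH 7 it was -0.46 (SE 0.21, adjusted p = 0.0526) and passed without replicate 1 (-0.52), with DESeq2 and with 5 of the other settings. The Ppp1r15a window held TGACGTCA, the cAMP response element, 12 bases before the RefSeq start. That motif, which is its own reverse complement, was in 1.79% of all windows and in none of the other 8 genes' windows. The 100 bases before the start (GRCm38.p6 chr7:45526269-45526368, minus strand) are shown with the motif in capitals.
Ppp1r15a: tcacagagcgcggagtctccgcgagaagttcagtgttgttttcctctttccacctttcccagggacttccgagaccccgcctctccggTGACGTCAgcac

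The CCAAT box (CCAAT on either strand) was also searched, and 6 of the 9 genes held it, against 37.4% of all windows. Ddit4 (ENSMUSG00000020108, chr10:59949669-59951834, minus strand) encodes REDD1, an inhibitor of mTORC1. With IL-2 it was at 77.3 ± 12.5 CPM at pH 7.4, 78.0 ± 5.81 CPM at pH 7 and 151 ± 21.8 CPM at pH 6.6. No pH 6.6 library, with or without IL-2, was below 125 CPM, and no library at the higher pH values was above 117 CPM. Ddit4 rose by 0.97 (SE 0.19, adjusted p = 3.47e-05) with IL-2 and by 1.11 (SE 0.19, adjusted p = 8.71e-06) without it. The difference between these changes was -0.13 (interval -0.68 to 0.41). The IL-2 differences of Ddit4 were 0.14, -0.06 and 0.01 at pH 7.4, 7 and 6.6, none of them called.

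Trib3 encodes a pseudokinase that binds CHOP and AKT and restrains ATF4 activity (ENSMUSG00000032715, chr2:152337422-152344032, minus strand). It was lower at pH 6.6 both with and without IL-2, but neither call held in every setting. Without IL-2 its levels at pH 7.4 were 36.6, 39.4, 47.8, 26.4 and 34.2 CPM, against 28.3, 22.1, 25, 27.5 and 24.3 CPM at pH 6.6, a change of -0.54 (SE 0.20, adjusted p = 0.0181). That call was lost without replicate 2 (-0.49) or 3 (-0.40). With IL-2 it measured 19.9, 25.7, 24.2, 33.4 and 47.4 CPM at pH 7.4 and 23.1, 22.8, 20.2, 20.9 and 18.6 CPM at pH 6.6. The groups overlapped, replicate 1 moved the other way, and replicate 5 had the widest gap. The change of -0.50 (SE 0.20, adjusted p = 0.0287) was lost without replicate 2 (-0.51), 4 (-0.45) or 5 (-0.25), and also with RLE scaling (-0.44), upper quartile scaling (-0.36), the looser filter (-0.51) and the fit of only the groups compared (-0.38). At pH 7 with IL-2, between 18.2 and 20.2 CPM, Trib3 was lower than at pH 7.4 by -0.64 (SE 0.20, adjusted p = 0.0257), a call lost without replicate 2 (-0.68), 4 (-0.60) or 5 (-0.46).

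**Figure D3:**
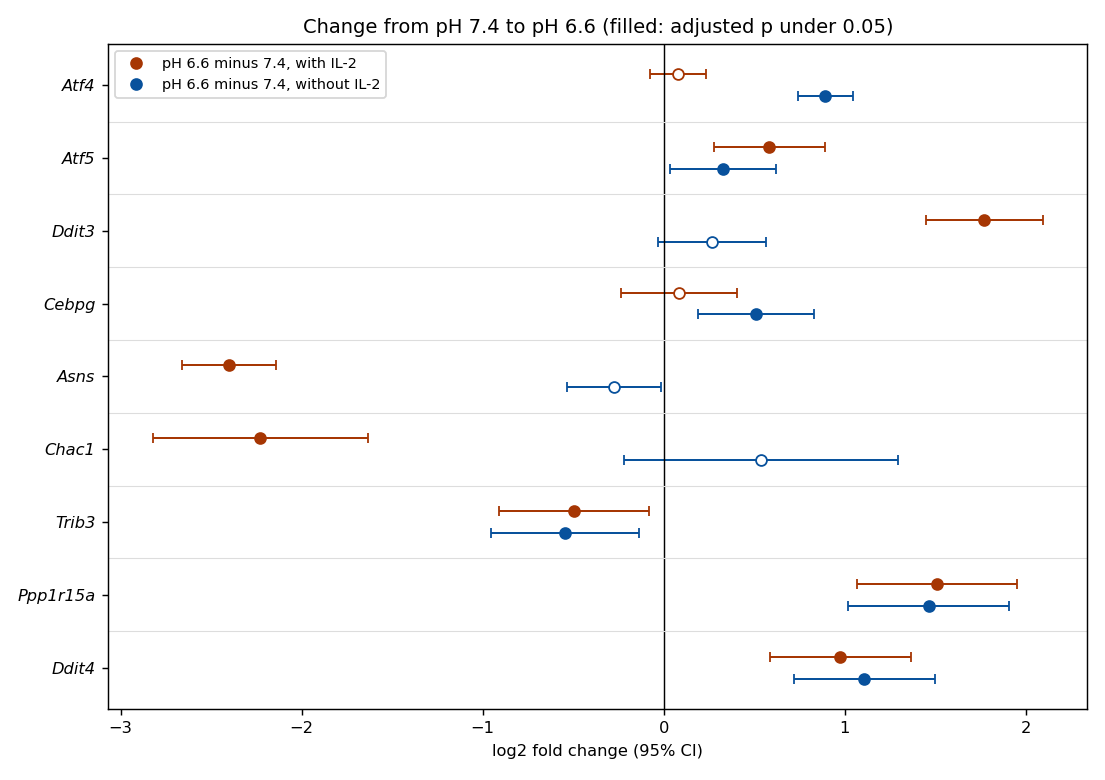
Log2 fold change from pH 7.4 to pH 6.6 for the 9 genes, with IL-2 (brown) and without IL-2 (blue), with 95% intervals built from the SE. Filled points passed an adjusted p of 0.05. Asns and Chac1 lie far below 0 only with IL-2, Ddit3 lies far above 0 only with IL-2, and Ppp1r15a and Ddit4 lie above 0 in both.

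Counted over the 9 genes, 4 were higher (Ddit3, Ppp1r15a, Ddit4, Atf5), 3 lower (Asns, Chac1, Trib3) and 2 not called at pH 6.6 against pH 7.4 with IL-2. In that comparison 76.3% of all genes tested were called (35.4% higher and 40.9% lower), so a count of 7 of 9 is near the background. Without IL-2, 5 were higher, 1 lower and 3 not called, against 67% of all genes (31.6% higher, 35.4% lower). From pH 7.4 to pH 7 with IL-2, 3 were lower (Atf4, Asns, Trib3) and 6 not called, against 19% of all genes (9.15% higher, 9.83% lower). From pH 7 to pH 6.6 with IL-2, 5 were higher and 2 lower, against 72.4% (32.5% higher, 40% lower). Between pH 7 and pH 7.4 without IL-2 edgeR called 0 of 9, against 1.68% of all genes called (1.36% higher, 0.318% lower). At an unadjusted p under 0.05 there were also 0 of the 9, and the share of all genes at that threshold was not computed. DESeq2 also called 0 of the 9 there, while the edgeR fit of only those groups called 3, Ddit3 (-0.25), Ppp1r15a (0.24) and Ddit4 (0.24). The 1.68% is the share in the main fit and is not a background for the calls of these other fits. The interaction of pH 6.6 and IL-2 was called for 4 of 9 (Ddit3 positive, and Atf4, Asns and Chac1 negative), against 67% (34.3% positive, 32.8% negative). That of pH 7 and IL-2 was called for 1 of 9 (Atf4, negative), against 4.79% (2.19% positive, 2.6% negative). The 2 pH comparisons with IL-2 share the pH 7.4 libraries, so they are not independent.

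**Figure D4:**
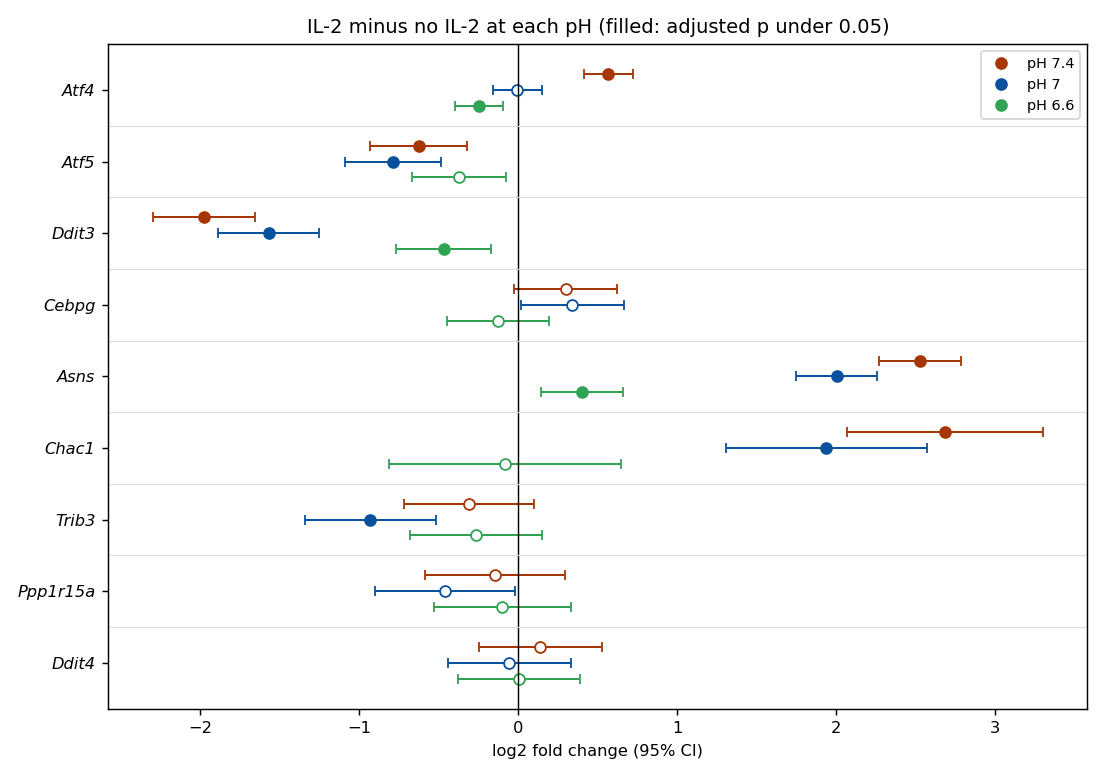
Log2 fold change of cells with IL-2 over cells without it, at pH 7.4 (brown), pH 7 (blue) and pH 6.6 (green), with 95% intervals built from the SE. Filled points passed an adjusted p of 0.05. The values of Asns, Chac1 and Ddit3 are far from 0 at pH 7.4 and pH 7 and lie within 0.5 of 0 at pH 6.6.

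For IL-2 against none at pH 7.4, 3 of 9 were higher (Atf4, Asns, Chac1) and 2 lower (Ddit3, Atf5), against 80.4% of all genes called (39.3% higher, 41.1% lower). At pH 7, 2 were higher (Asns, Chac1) and 3 lower (Atf5, Ddit3, Trib3), against 77.2% (37.6% higher, 39.5% lower). Trib3 differed there by -0.93 (SE 0.20, adjusted p = 0.000127) without overlap between the groups. At pH 6.6, 1 was higher (Asns) and 2 lower (Atf4, Ddit3), against 23.7% of all genes (13.2% higher, 10.6% lower).

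Relative to the cells at 0 h, most of the 9 genes were lower after 24 h. At pH 7.4, 9 of 9 were lower both with IL-2 (59.9% of all genes called, 29% higher and 30.9% lower) and without it (75.2%, 36.9% higher and 38.3% lower). These comparisons share the 0 h libraries. At pH 7.4 the lower sign held in only 3 of 5 replicates for Cebpg and Ppp1r15a with IL-2, and for Ddit3 and Ppp1r15a without it. Atf5 had the largest fall of the 9 with IL-2 at pH 7.4, from 60.1 ± 20.1 CPM at 0 h, by -3.37 (SE 0.15). Trib3, at 135 ± 55.3 CPM at 0 h, was lower by -2.15 (SE 0.20) with IL-2. Asns was lower by -0.62 (SE 0.12) with IL-2 at pH 7.4 and by -3.14 (SE 0.13) without it. Chac1, at 5.58 ± 2.65 CPM at 0 h, was lower by -1.51 (SE 0.22) and -4.20 (SE 0.28). At pH 6.6 with IL-2, 8 were lower and 1 higher than at 0 h (68.5% of all genes called, 30.5% higher and 38% lower), and at pH 6.6 without IL-2, 6 were lower, 1 higher and 2 not called (75.1%, 34.8% higher and 40.3% lower). Ppp1r15a was the higher gene in both, by 0.79 (SE 0.22, adjusted p = 0.00174) with IL-2 and by 0.90 (SE 0.22, adjusted p = 0.000455) without.

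Over the 21 pairs of the 7 groups, Atf4 passed the test in 17, Asns in 16, Atf5 and Ddit3 in 15, Chac1, Trib3 and Ddit4 in 14, Ppp1r15a in 13 and Cebpg in 10. The share of all genes called ranged over these pairs from 1.68% to 80.9%, and was 75.4% and 54.3% for 0 h against pH 7 without and with IL-2.

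For several genes the 0 h libraries were the least even. Ddit4 in replicates 1 to 5 measured 324, 120, 104, 282 and 388 CPM at 0 h. Ddit3 measured 58.6, 25.7, 21.9, 41.1 and 58.0 CPM, and Cebpg 83.8, 50.7, 52.7, 105 and 110 CPM. Replicates 2 and 3 were the lowest in all 3 of these genes and in Atf5 and Trib3. Ppp1r15a had another order at 0 h, 84.0, 80.7, 69.7, 47.1 and 40.4 CPM, with replicates 4 and 5 lowest. Several calls against 0 h rested on particular replicates. Ppp1r15a at pH 7.4 with IL-2 (-0.72) was not called without replicate 1 (-0.43), 2 (-0.60) or 3 (-0.60), and without IL-2 (-0.57) it was not called without replicate 1 (-0.29), 2 (-0.38) or 3 (-0.52). Ddit3 at pH 7.4 without IL-2 (-0.37) was not called without replicate 1 (-0.17), 4 (-0.35) or 5 (-0.21), and at pH 6.6 with IL-2 its value of -0.58 moved to -0.37 without replicate 5. Cebpg at pH 6.6 with IL-2 (-0.45) was not called without replicate 1 (-0.38), 4 (-0.30) or 5 (-0.23). Ddit4 at pH 6.6 with IL-2 (-0.60) was not called without replicate 1 (-0.33) or 5 (-0.44), and without IL-2 (-0.61) it was not called without replicate 1 (-0.37). Atf4 at pH 6.6 without IL-2 (-0.19) was not called without replicate 1 (-0.10), 2 (-0.17), 3 (-0.18) or 5 (-0.13), and was -0.28 without replicate 4.

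Around the 9 genes, lists of amino acid enzymes, transporters and tRNA synthetases were mostly lower at pH 6.6 with IL-2, as Asns and Chac1 were. The lists of pathway genes were written from general knowledge, and a share of their members is also known to follow c-Myc and mTORC1. Across all genes the median change from pH 7.4 to pH 6.6 was -0.07 with IL-2 and -0.03 without. Each list is described by its counts and median beside those over all genes given above. Of the enzymes for serine, one-carbon, proline and other amino acids, 13 of the 14 tested were lower at pH 6.6 with IL-2 and 0 were higher, with a median of -2.04. Psat1, which makes phosphoserine, had group means of 324 CPM at pH 7.4, 235 CPM at pH 7 and 62.1 CPM at pH 6.6 with IL-2, a change of -2.38 (SE 0.08). Shmt2, mitochondrial serine hydroxymethyltransferase, fell by 2.69 (SE 0.12). Phgdh, which opens serine synthesis, fell by 2.08 (SE 0.10), and Mthfd1l, of mitochondrial folate metabolism, fell by 2.01 (SE 0.07). Without IL-2, 5 of the same 14 were higher and 4 lower, with a median of 0.13. Psat1 rose there by 0.88 (SE 0.08, adjusted p = 2.89e-11) from 20.7 to 38.1 CPM, and Mthfd1l rose by 0.62 (SE 0.07).

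Amino acid transporters and tRNA synthetases followed the same direction with IL-2. Of 11 transporters, 9 were lower and 1 higher, with a median of -2.19. Without IL-2, 2 were lower and 3 higher, with a median of 0.19. Slc7a5, the large neutral amino acid carrier, was at 294 CPM at pH 7.4 and 35.5 CPM at pH 6.6 with IL-2, a change of -3.13 (SE 0.16). Slc7a1, which carries arginine and lysine, fell by 2.33 (SE 0.17), and Slc1a5, which carries glutamine, fell by 0.96 (SE 0.09) with IL-2 and by 0.52 (SE 0.09) without it. The exception was Slc38a2, a glutamine carrier induced when amino acids are scarce, which rose by 0.58 (SE 0.08, adjusted p = 9.19e-08) with IL-2 and by 0.89 (SE 0.08) without it. Of 12 tRNA synthetases, 11 were lower and 0 higher with IL-2 (median -1.30), and 5 were higher and 4 lower without it (median 0.04). Tars, which charges threonyl-tRNA, fell by 1.8 (SE 0.06) with IL-2, and Wars, Iars and Nars fell by 1.76 (SE 0.11), 1.72 (SE 0.09) and 1.56 (SE 0.08).

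Genes upstream of ATF4 gave a mixed picture. Among 17 eIF2alpha kinases, eIF2 and eIF2B subunits and phosphatase genes, 3 were higher and 9 lower at pH 6.6 when IL-2 was given, with a median of -0.24. In its absence, 12 were higher and 1 lower (median 0.27). Eif2ak3, which encodes the endoplasmic reticulum kinase PERK, rose by 1.04 (SE 0.09) with IL-2, from 127 to 263 CPM, and by 0.41 (SE 0.09) without it. Eif2s1, which encodes eIF2alpha, fell by 1.49 (SE 0.08) with IL-2, and the eIF2B subunit genes Eif2b3 and Eif2b5 fell by 1.72 (SE 0.10) and 0.97 (SE 0.06). Of 12 other bZIP factors, 5 were higher and 4 lower with IL-2 (median 0.04). Jun rose by 0.59 (SE 0.14), Nfe2l2, which encodes NRF2, rose by 0.55 (SE 0.10), and Jund and Nfe2l1 fell by 1.16 (SE 0.15) and 0.40 (SE 0.07).

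Other stress arms also differed with IL-2. Of 20 endoplasmic reticulum chaperones and unfolded protein response genes, 14 were lower and 2 higher at pH 6.6 when IL-2 was given, with a median of -1.20. In its absence 12 were higher and 1 lower, with a median of 0.28. Ern1, which encodes the sensor IRE1alpha, rose by 1.84 (SE 0.10) with IL-2 and by 0.65 (SE 0.09) without. Sdf2l1, a chaperone cofactor of that compartment, fell by 4.06 (SE 0.14) with IL-2, Manf fell by 2.06 (SE 0.10) and Creld2 fell by 1.85 (SE 0.09). Of 10 mitochondrial stress genes, 7 were lower and 0 higher with IL-2 (median -0.66), and 7 were higher and 2 lower without it (median 0.28). Hspd1, a mitochondrial chaperone, fell by 2.29 (SE 0.10) with IL-2, Hspa9 fell by 1.55 (SE 0.07), Clpp fell by 1.26 (SE 0.12) and Lonp1 fell by 1.1 (SE 0.10). Of 13 mTORC1 brakes, secreted factors and death genes, 4 were higher and 8 lower with IL-2 (median -0.72), and 11 were higher and 1 lower without it (median 0.90). Bcl2l11, which encodes BIM, rose by 3.04 (SE 0.13) with IL-2, from 123 to 1010 CPM, and by 1.23 (SE 0.12) without. Bbc3, which encodes PUMA, rose by 2.84 (SE 0.19) with IL-2. Eif4ebp1, a brake on translation, fell by 1.25 (SE 0.15), and Ero1l, an oxidase of the endoplasmic reticulum, fell by 1.13 (SE 0.15).

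**Figure D5:**
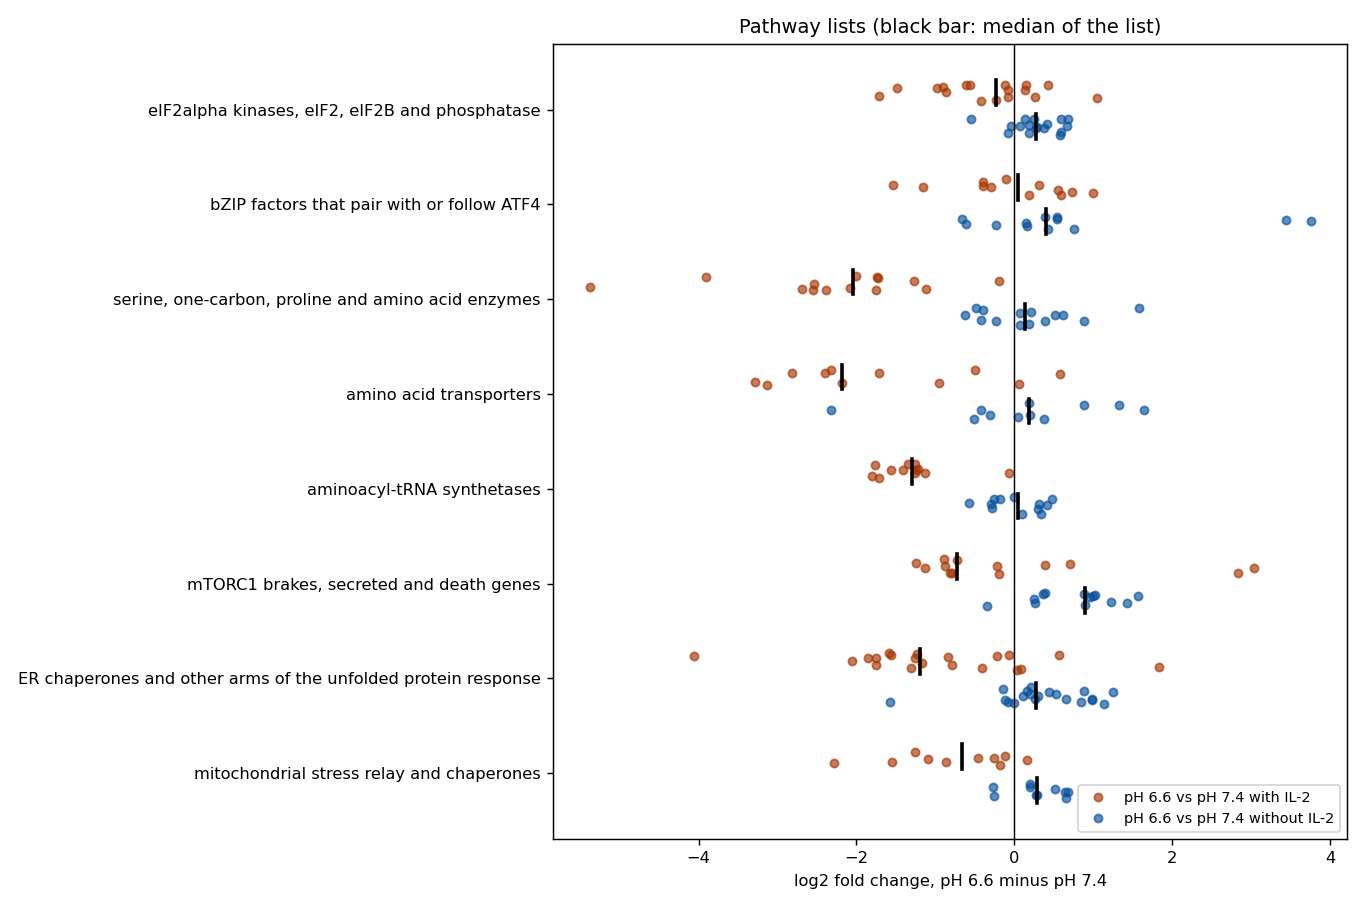
Log2 fold change from pH 7.4 to pH 6.6 for each tested gene of 8 pathway lists, with IL-2 (brown) and without IL-2 (blue). Black bars are list medians, which for the amino acid enzymes are -2.04 with IL-2 and 0.13 without.

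With IL-2 against none at pH 7.4, 13 of the 14 enzymes, 10 of the 11 transporters and 12 of the 12 synthetases were higher, with medians of 2.56, 1.91 and 1.51. At pH 6.6 the same counts were 6, 3 and 2, with medians of 0.34, 0.03 and 0.09. The interaction of pH 6.6 and IL-2 was called negative for 13 of the 14 enzymes, 9 of the 11 transporters and 12 of the 12 synthetases. Asns was not a member of these lists, and its interaction of -2.13 was near the enzyme median of -2.20.

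The genes most like Atf4 and Ddit3 in pattern were taken by Pearson r over the 7 group means from 4703 genes, those whose mean log2 CPM reached 3 and whose group means spanned 1 or more. For Atf4 they included Smim7 (0.95), Dyrk3 (0.94), Nlgn2 (0.94) and Snhg6 (0.93). For Ddit3 they were Ndufa6 (0.98), Gpc1 (0.98), 1600020E01Rik (0.98), Pgpep1 (0.98) and Arrdc2 (0.97). The nearest pairs among the 9 genes were Asns with Chac1 (0.97), Atf4 with Cebpg (0.92) and Atf5 with Trib3 (0.92), and the pair with the lowest value was Asns with Ppp1r15a (-0.50). With 7 points and many genes compared, high values follow from the choice itself.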

How the data were processed

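RNA was sequenced from 35 libraries, 7 groups of 5 biological replicates. The authors made stranded polyadenylated RNA libraries, sequenced single reads and deposited 1 table of unnormalized read counts per gene and library. The submitters' processing notes name cutadapt 1.8, STAR 2.5.2b, HTSeq 0.6.1 and GRCm38, with no settings. The annotation release and strand setting of the counting were not given in the sources used here. Counts marked as alignments that were not unique (median 37.1% of a library's total, from 32.8% to 48.3%) were not on genes. Genes with near-identical copies can thus be undercounted. Rows naming no gene were left out.

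In R 4.3.3, edgeR 4.0.16 kept 13819 genes (filterByExpr, minimum count 10), scaled by TMM and fitted 1 robust quasi-likelihood model with group and replicate number as terms. Each contrast was adjusted by the Benjamini-Hochberg method over all genes tested, with a threshold of 0.05. The common biological coefficient of variation was 0.120. The labels number replicates 1 to 5 in each group: of 105 same-numbered pairs of libraries across groups, 95 had correlated deviations from the group means (r over 0.1, median 0.273, against -0.0745 for different numbers), and so had 5 of 5 pairs across the acidic (6.6) and neutral (7.4) groups with IL-2. Among 70 pairs within groups none agreed within sampling noise (lowest chi-square per degree of freedom 6.65). RPKM used GENCODE M21 exon lengths, and coordinates are from that release. Promoter windows are RefSeq's for GRCm38.p6.

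The genes and lists were chosen with earlier results of these data known. At most 4 genes per list were named, by the largest absolute change at pH 6.6 against pH 7.4 with IL-2 where the mean log2 CPM reached 3, and for Atf4 and Ddit3 the 5 genes most like them, of which 1 is not reported here. The symbols of 2 listed genes were changed to those of GENCODE M21. Alternatives were RLE and upper quartile scaling, DESeq2 1.42.0, 2 other filters, no block, only the groups compared, each replicate left out, a fold threshold and, added after seeing the data, a fit without the 0 h libraries.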

Additional observations from a re-analysis of the deposited data

Results flagged for a closer look

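Of 63 combinations of gene and group, 1 held a library far from the other 4: Chac1 in replicate 1 at pH 6.6 without IL-2, at 0.968 CPM, against 0.229 to 0.423 CPM in the others. Chance flags about 1 in 20 such groups. That library held 23 Chac1 reads, and without replicate 1 the pH change of Chac1 without IL-2 went from 0.54 to -0.0067.

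The effect of pH differed with IL-2 by an interaction term for 4 genes at pH 6.6 and 1 at pH 7. At pH 6.6 the log2 difference was -0.815 for Atf4, 1.51 for Ddit3, -2.13 for Asns and -2.76 for Chac1, with the same sign in 5 of 5 replicates for each. At pH 7 it was -0.574 for Atf4, also in 5 of 5 replicates.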

How the results depend on the processing

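For called values of the 9 genes, 865 alternatives kept direction and call, 67 lost the call and 0 turned sign. For values not called, 580 stayed so, 46 passed and 27 turned sign. Requiring an absolute log2 change of at least 1 left 4 genes at pH 6.6 against pH 7.4 with IL-2, 0 at pH 7 against pH 7.4 with IL-2, 4 at pH 6.6 against pH 7 with IL-2 and 2 at pH 6.6 against pH 7.4 without IL-2. It left 3 for IL-2 at pH 7.4, 3 at pH 7 and 0 at pH 6.6, 0 for the interaction at pH 7, 5 at pH 7.4 with IL-2 against 0 h, and 4 each at pH 6.6 with and without IL-2 against 0 h. The share of all genes that passed this fold threshold was not computed, so these counts have no background to be read against. Fitting only the groups compared called 3 genes (Ddit3, Ppp1r15a, Ddit4) at pH 7 against pH 7.4 without IL-2, 5 for IL-2 at pH 6.6 and 3 (Atf4, Asns, Ddit3) for the interaction at pH 7. Without the 0 h libraries that interaction also had 3 calls. The shares of all genes given above are those of the main fit. They are no background for the counts from these fits or from those named next. At pH 7 against pH 7.4 with IL-2, for example, fitting only the groups compared called 4388 genes, against 2623 in the main fit. Without the replicate block, 1 gene (Ddit3) was called for IL-2 at pH 6.6 and 0 for the interaction at pH 7. Against 0 h, Ppp1r15a at pH 7.4 with (-0.56) and without IL-2 (-0.44) and Atf4 at pH 6.6 without IL-2 (-0.18) then lost their calls. Apart from these and Atf5 at pH 6.6 without IL-2, it changed no other call of the 9 genes. Leaving out each replicate gave 0 to 3 calls for IL-2 at pH 6.6, 0 without replicate 4 and 1 without replicate 3, and 1 to 2 for the interaction at pH 7, 2 without replicate 1. The causes were not tested. Upper quartile scaling moved the median of all genes for IL-2 at pH 7.4 from -0.04 to -0.27. Chac1 was not tested under the filter of at least 10 counts in every library, and its counts at 24 h limit its precision.

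Values that turned sign, none of them called, were as follows when each replicate was left out. From pH 7.4 to pH 7 with IL-2, Atf5 ranged from -0.19 to 0.082, Ppp1r15a from -0.13 to 0.038 and Ddit4 from -0.014 to 0.13. Without IL-2, Chac1 ranged from -0.0067 to 0.83 at pH 6.6 and from -0.044 to 0.19 at pH 7, and Trib3 from -0.070 to 0.057 at pH 7. For IL-2 against none, Ddit4 ranged from -0.0135 to 0.23 at pH 7.4, from -0.22 to 0.078 at pH 7 and from -0.024 to 0.071 at pH 6.6, Atf4 from -0.073 to 0.015 at pH 7 and Chac1 from -0.45 to 0.39 at pH 6.6. The interaction of Trib3 at pH 6.6 ranged from -0.15 to 0.30, and Ddit3 at pH 6.6 without IL-2 against 0 h from -0.23 to 0.080. Under other settings, Ddit4 turned to -0.085 for IL-2 at pH 7.4 and to 0.12 for the interaction at pH 6.6 with upper quartile scaling, and to -0.0082 for IL-2 at pH 6.6 without the replicate block. Atf4 for IL-2 at pH 7 turned to 0.016 with the looser filter and to 0.0090 when only the groups compared were fitted, and Ddit3 at pH 6.6 without IL-2 against 0 h then turned to 0.0066.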
